A study of Mus musculus with 9 samples.

Results

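The cornified envelope genes of mouse skin encode proteins that are crosslinked beneath the membrane of dying keratinocytes in the outermost epidermis. They were taken as the rows of the deposited table whose symbol begins with Lce or Sprr and a digit, together with Lor, Flg, Flg2, Hrnr, Rptn, Ivl, Crnn and Cnfn. These rows numbered 47 of 57180: 21 late cornified envelope (Lce) genes, 18 small proline-rich (Sprr) genes and the 8 others. In the reference annotation 46 lie on chromosome 3 and Cnfn lies on chromosome 7. The study sequenced total RNA from skin. All groups were balb/c-nude mice, which lack a thymus and have an abnormal coat, so they share that background. There were 3 groups of 3 libraries. The group called NoUVB received no UVB, and its labels name no injection. The groups called UVB-Saline and UVB-hCOL3A1 had UVB on the back every other day for 8 weeks, at a dose raised from 60 to 240 mJ/cm2 (1 to 4 minimal erythemal doses), with saline or hCOL3A1. Tissue was taken at day 28, and how that day relates to the 8 weeks of UVB is not given in the sources used here. The form, carrier, dose and route of hCOL3A1 and the age and sex of the mice are likewise not given there. The labels name no group given a carrier alone or another human RNA or protein, so what is particular to hCOL3A1 cannot be told apart from such effects. The labels do not tie libraries to animals, so the p-values measure the spread between these libraries, which may be technical.

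Keratinocytes that leave the basal layer switch on these genes in order. Involucrin (Ivl) forms an early scaffold, loricrin (Lor) supplies most of the mature envelope, and Sprr and Lce proteins crosslink them. Filaggrin (Flg), filaggrin 2 (Flg2), hornerin (Hrnr), repetin (Rptn) and cornulin (Crnn) belong to the fused S100 family, whose large repeat proteins bind keratin, feed the moisture of the outer layer or join the envelope. Several Sprr genes are known to be switched on in wounded, inflamed or ultraviolet-exposed epidermis.

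The windows around the start sites of 5 genes are shown because the libraries described below differed widely in these genes, 3 of them high and 2 low in the same libraries. They were chosen after their values were seen, and other members differed as widely. Each runs 5′ to 3′ on the gene's own strand from 250 bases before to 50 bases after the start, as RefSeq gives it for GRCm38.p6. Capitals mark TGANTCA on either strand, a core to which AP-1 factors bind, and the TATA-box letters TATAAA.
Sprr2a2: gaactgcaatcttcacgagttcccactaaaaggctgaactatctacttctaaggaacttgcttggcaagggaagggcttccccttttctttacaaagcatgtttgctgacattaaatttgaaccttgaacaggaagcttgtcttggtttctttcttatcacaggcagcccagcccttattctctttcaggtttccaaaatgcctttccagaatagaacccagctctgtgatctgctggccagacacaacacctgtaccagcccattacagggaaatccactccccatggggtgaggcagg
Sprr1b: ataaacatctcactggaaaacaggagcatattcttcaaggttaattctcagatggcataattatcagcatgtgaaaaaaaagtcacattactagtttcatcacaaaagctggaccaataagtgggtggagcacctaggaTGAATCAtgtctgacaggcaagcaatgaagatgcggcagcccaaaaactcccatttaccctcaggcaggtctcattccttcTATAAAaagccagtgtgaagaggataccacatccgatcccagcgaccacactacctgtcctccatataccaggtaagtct
Rptn: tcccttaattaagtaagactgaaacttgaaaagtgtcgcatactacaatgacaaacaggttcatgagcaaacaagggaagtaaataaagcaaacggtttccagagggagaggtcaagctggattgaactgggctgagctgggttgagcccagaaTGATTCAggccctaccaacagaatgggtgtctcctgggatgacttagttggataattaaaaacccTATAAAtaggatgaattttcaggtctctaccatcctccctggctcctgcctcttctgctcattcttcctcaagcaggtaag
Crnn: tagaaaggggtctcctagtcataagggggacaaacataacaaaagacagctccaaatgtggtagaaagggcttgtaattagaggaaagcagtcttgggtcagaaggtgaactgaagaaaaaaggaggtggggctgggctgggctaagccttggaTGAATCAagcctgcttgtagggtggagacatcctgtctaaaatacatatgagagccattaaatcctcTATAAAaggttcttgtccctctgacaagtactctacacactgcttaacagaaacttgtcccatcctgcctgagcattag
Flg2: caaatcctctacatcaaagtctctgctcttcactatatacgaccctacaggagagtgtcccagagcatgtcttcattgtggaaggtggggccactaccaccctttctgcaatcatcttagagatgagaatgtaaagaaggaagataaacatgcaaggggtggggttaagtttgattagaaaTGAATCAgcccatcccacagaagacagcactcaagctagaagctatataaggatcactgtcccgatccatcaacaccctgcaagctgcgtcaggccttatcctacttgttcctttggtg
Sprr2a2 lies at chr3:92250397-92250696 on the plus strand, Sprr1b at chr3:92438730-92439029 on the minus strand, Rptn at chr3:93393449-93393748 on the plus strand, Crnn at chr3:93144539-93144838 on the plus strand and Flg2 at chr3:93197023-93197322 on the plus strand. The Sprr2a2 window held neither motif. The Sprr2a1 window had the same letters, and the Sprr2a3 window shared 272 bases with it. All other Sprr2 genes with a window (Sprr2b, Sprr2d, Sprr2e, Sprr2f, Sprr2h, Sprr2i and Sprr2k) held both motifs. Whether the Sprr2a2 window lies at the start used in skin was not tested. Of the printed windows Sprr1b, Rptn and Crnn held both, and Flg2 held TGANTCA alone, so the letters did not divide these high genes from these low ones. RefSeq had a window for 42 of the 47 members. TGANTCA was present in 15 of the 42 (35.7%), comprising 9 of 14 Sprr, 0 of 20 Lce and 6 of 8 other windows, against 7.81% of all 32851 windows of that length. TATAAA, also sought on both strands, was present in 20 of the 42 (47.6%), against 13.6% of all windows. The core of an interferon-stimulated response element was in 0 of 42, against 3.44% of all. A match describes the letters only.

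Of the 47 members, 46 had at least 1 estimated count somewhere and Sprr2c-ps was at 0 in all 9 libraries. The filter on low counts kept 32: 14 Lce1 genes and Lce6a, 9 Sprr genes and all 8 of the others. In every library 27 members reached 1 CPM, the unit of counts relative to library size as scaled by TMM, comprising 13 Lce, 6 Sprr and 8 others. The mean over libraries was at least 10 CPM for 15 members, and 9 members reached 100 CPM in some library. The 15 that were not tested included the 6 Lce3 genes, known as the inducible branch of the Lce family. Their highest value was 3.25 CPM, for Lce3c in UVB-Saline 3. The mean over libraries was 0.792 CPM for Lce3c, 0.317 for Lce3b and 0.234 for Lce3a. The summed Lce3 level was 0.411 to 1.81 CPM in every library but that one, where it was 6.29 CPM. Sprr3, abundant in oral and oesophageal lining, had 2 estimated counts in UVB-Saline 3 and 0 in the other 8 libraries.

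Total estimated counts were 7640172 to 12927411 per library, and the ribosomal entry Rn18s-rs5 held 34.3% to 55.3% of them except in NoUVB 2, where it held 7.71%. The members held 0.229% to 0.568% of the rest. All 12 markers of basal epidermis were detected, at a summed 3180 to 5478 CPM. UVB-Saline 3 and UVB-hCOL3A1 3 stood apart over all genes, at 55.0 and 39.8 on the first principal component against -33.5 to 10.05 for the other 7. In these bulk samples fewer cells of a type and less RNA per cell cannot be told apart. Sprr2a1 and Sprr2a2 share 89.6% and 89.0% of their 150-base stretches with another member and Sprr2a3 shares 19.0%, so reads among these 3 genes are uncertain and their sum is given as well. The 14 Lce1 genes shared no such stretch, although 19 of the 21 Lce genes had values that were not whole numbers.

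In unirradiated skin Sprr1a, a crosslinking bridge of the envelope, was the highest member per length of exon, at 272 CPM per kb as the mean of the 3 NoUVB libraries. Sprr5 (81.6) and Crnn (76.4) followed, with overlapping ranges of 67.3 to 103 and 49.5 to 100.8 CPM per kb. Flg was next at 39.7 CPM per kb, with a range of 20.2 to 65.6 that covered the means of the next 5 genes. Those were Lce1a1 (31.7), Cnfn (31.1), Lce1b (30.8), Lor (25.3) and Ivl (23.5). Only the first place stood clear, since the lowest Sprr1a value (204) lay above the highest of any other member. The order rests on exon lengths from an annotation of GRCm38, in which the Sprr2a genes carry long transcript forms that lower their value per kb.

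**Figure D1:**
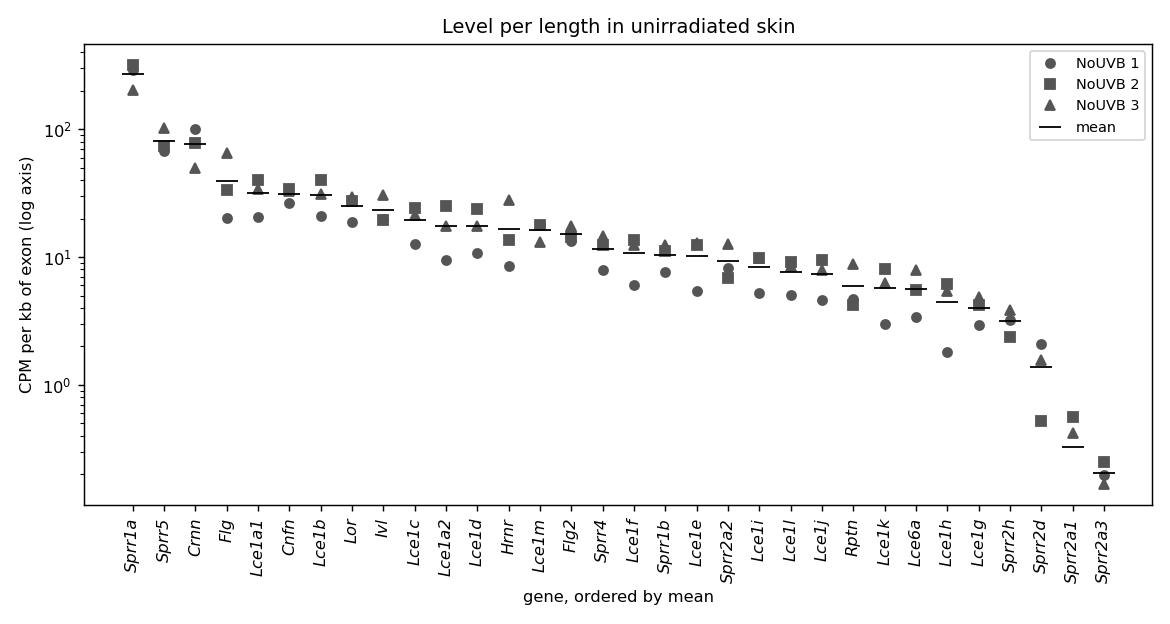
Level per length in unirradiated skin. The vertical log axis gives CPM per kb of exon for the 32 tested members, with a point for each NoUVB library and a bar for the mean. Sprr2a1 at 0 in NoUVB 1 cannot be drawn on it. Sprr1a stands alone at the top with a mean of 272.

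The study's first comparison, UVB-Saline against NoUVB, sets skin given repeated UVB and saline against skin without UVB. The labels name no unirradiated group given saline, so effects of UVB and of saline cannot be told apart in it. No member passed the test. The highest differences belonged to the Sprr2a genes, Sprr1b and Rptn. For Sprr2a2, Sprr1b and Rptn most of the size came from UVB-Saline 3. Flg2, Crnn and Lce1m were low in that same library, so members stood on both sides in it. Flg, the member with the highest mean level, overlapped between the groups.

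The Sprr2a genes encode small crosslinking proteins. Sprr2a2, which held 88.3% to 97.4% of the counts of Sprr2a1, Sprr2a2 and Sprr2a3, was at 23.9, 19.9 and 37.0 CPM in the NoUVB libraries and at 21.5, 56.4 and 1221 CPM in UVB-Saline. UVB-Saline 1 lay within the unirradiated range, UVB-Saline 2 lay above it and UVB-Saline 3 was far above both. The summed level of the 3 genes was 28.5 ± 8.94 CPM in NoUVB and 451 ± 706 CPM in UVB-Saline (SD, n = 3). Their share of all member counts was 0.974% to 3.24% in 7 libraries and 34.8% in UVB-Saline 3. The fitted log2 difference was 4.00 ± 1.88 (SE) for Sprr2a2, with an edgeR adjusted p of 0.582, and 0.52 without UVB-Saline 3. Sprr2a3 differed by 4.54 ± 1.70 (adjusted p = 0.484), and by 2.25 without that library. Its levels were 0.568, 0.714 and 0.481 CPM in NoUVB against 0.616, 5.01 and 36.9 CPM in UVB-Saline. The NoUVB values rest on 4.47 to 8.23 estimated counts, so the difference is set against a very low level. Sprr2a1 differed by 1.88 ± 1.09 (adjusted p = 0.643), and its levels were 0, 1.70 and 1.25 CPM in NoUVB against 2.16, 1.97 and 7.91 CPM. It was the only member with every UVB-Saline library above every NoUVB library; 7.18% of all tested genes were placed so. The 2 other tested Sprr2 genes were low throughout, Sprr2d at 0.0762 to 4.12 CPM and Sprr2h at 1.14 to 5.20 CPM.

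Sprr1b, known to respond to squamous stress, followed the same libraries. It was at 6.39, 9.29 and 10.3 CPM in NoUVB and at 5.34, 16.6 and 109 CPM in UVB-Saline, a log2 difference of 2.31 ± 1.08 (adjusted p = 0.574) that was 0.33 without UVB-Saline 3. Its neighbour Sprr1a did not share the pattern, at 236, 257 and 165 CPM in NoUVB and 218, 181 and 175 CPM in UVB-Saline. The log2 difference of Sprr1a was -0.20 ± 0.25 (adjusted p = 0.845). Sprr5 stood at 45.6, 50.4 and 69.7 CPM without UVB and at 49.3, 67.7 and 160 CPM in UVB-Saline. Only UVB-Saline 3 exceeded the unirradiated range of Sprr5, whose log2 difference was 0.74 ± 0.43 (adjusted p = 0.645) and 0.071 without it. Sprr4 differed by 0.27 ± 0.43 (adjusted p = 0.887), and by -0.086 without UVB-Saline 2. For 8 of the 9 tested Sprr genes the log2 difference was positive, and their median was 0.91 against 0.01 over all tested genes.

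Within the fused S100 family the genes parted. Rptn was at 19.6, 17.6 and 36.6 CPM in NoUVB and 28.5, 40.8 and 374 CPM in UVB-Saline, a log2 difference of 2.58 ± 1.08 (adjusted p = 0.522) and of 0.48 without UVB-Saline 3. Flg2, by contrast, was at 279, 298 and 361 CPM in NoUVB and at 282, 195 and 40.0 CPM in UVB-Saline. UVB-Saline 3 was the lowest of all 9. The log2 difference of Flg2 was -0.86 ± 0.67 (adjusted p = 0.745), and -0.40 without that library. Crnn, which lies beside Flg2, was at 188, 147 and 92.2 CPM in NoUVB and 140, 76.7 and 16.6 CPM in UVB-Saline. Crnn differed by -0.87 ± 0.73 on the log2 scale (adjusted p = 0.762), and by -0.40 without UVB-Saline 3. Flg showed neither course, with 381, 629 and 1236 CPM in NoUVB and 1061, 893 and 1112 CPM in UVB-Saline. The unirradiated libraries spanned the 3 irradiated ones, and the log2 difference was 0.45 ± 0.39 (adjusted p = 0.773). Hrnr spanned 94.5, 153 and 311 CPM in NoUVB and 227, 204 and 181 CPM in UVB-Saline. Its log2 difference of 0.13 ± 0.42 (adjusted p = 0.950) turned to -0.19 without NoUVB 1.

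Lce genes, whose proteins are added late to the envelope, had a positive difference in 3 of 15 tested, with a median of -0.41. The 14 Lce1 genes summed to 93.0, 175 and 146 CPM in NoUVB and to 132, 85.7 and 84.8 CPM in UVB-Saline, so the groups overlapped. Lce1a1, the highest of them, was at 14.5, 28.3 and 24.2 CPM in NoUVB and 20.1, 15.3 and 13.7 CPM in UVB-Saline. Lce1b was at 13.6, 26.0 and 20.2 CPM in NoUVB and 17.3, 10.5 and 9.65 CPM in UVB-Saline. Lce1b differed by -0.69 ± 0.44 (adjusted p = 0.674) and Lce1l by -0.89 ± 0.53 (adjusted p = 0.648), the lower members with the smallest p. Lce1m lies apart from the other Lce1 genes, between the Lce3 genes and Crnn. It was at 16.9, 17.0 and 12.4 CPM in NoUVB and 11.3, 11.5 and 1.41 CPM in UVB-Saline, the only member with every UVB-Saline library below every NoUVB library, as were 6.61% of all tested genes. The log2 difference of Lce1m was -0.91 ± 0.66 (adjusted p = 0.715), and -0.44 without UVB-Saline 3.

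The scaffold genes differed less. Lor was at 33.5, 48.6 and 53.0 CPM in NoUVB and 48.8, 43.2 and 29.5 CPM in UVB-Saline, with a log2 difference of -0.16 ± 0.29 (adjusted p = 0.905) that was 0.014 without UVB-Saline 3. Ivl ranged from 37.8 to 59.3 CPM in NoUVB and from 27.5 to 55.9 CPM in UVB-Saline. Cnfn, cornifelin, ranged from 19.0 to 24.6 CPM and from 17.9 to 28.0 CPM, so both genes overlapped between the groups.

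Over the 32 tested members the log2 differences were positive for 14 and negative for 18, with a median of -0.08 against 0.01 over all tested genes. By edgeR's quasi-likelihood test with Benjamini-Hochberg adjustment 0 members were called, and 0.0175% of all tested genes were. At an unadjusted p under 0.05, 2 members were higher (Sprr2a3 and Rptn) and 0 lower, against 4.93% and 4.6% of all tested genes. DESeq2, run without the filter on low counts, called 0 of the 29 members to which it gave an adjusted p. Counting also members with a p but no adjusted p, 3 were under the unadjusted level in either direction, against 4% of all genes with a p.

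**Figure D2:**
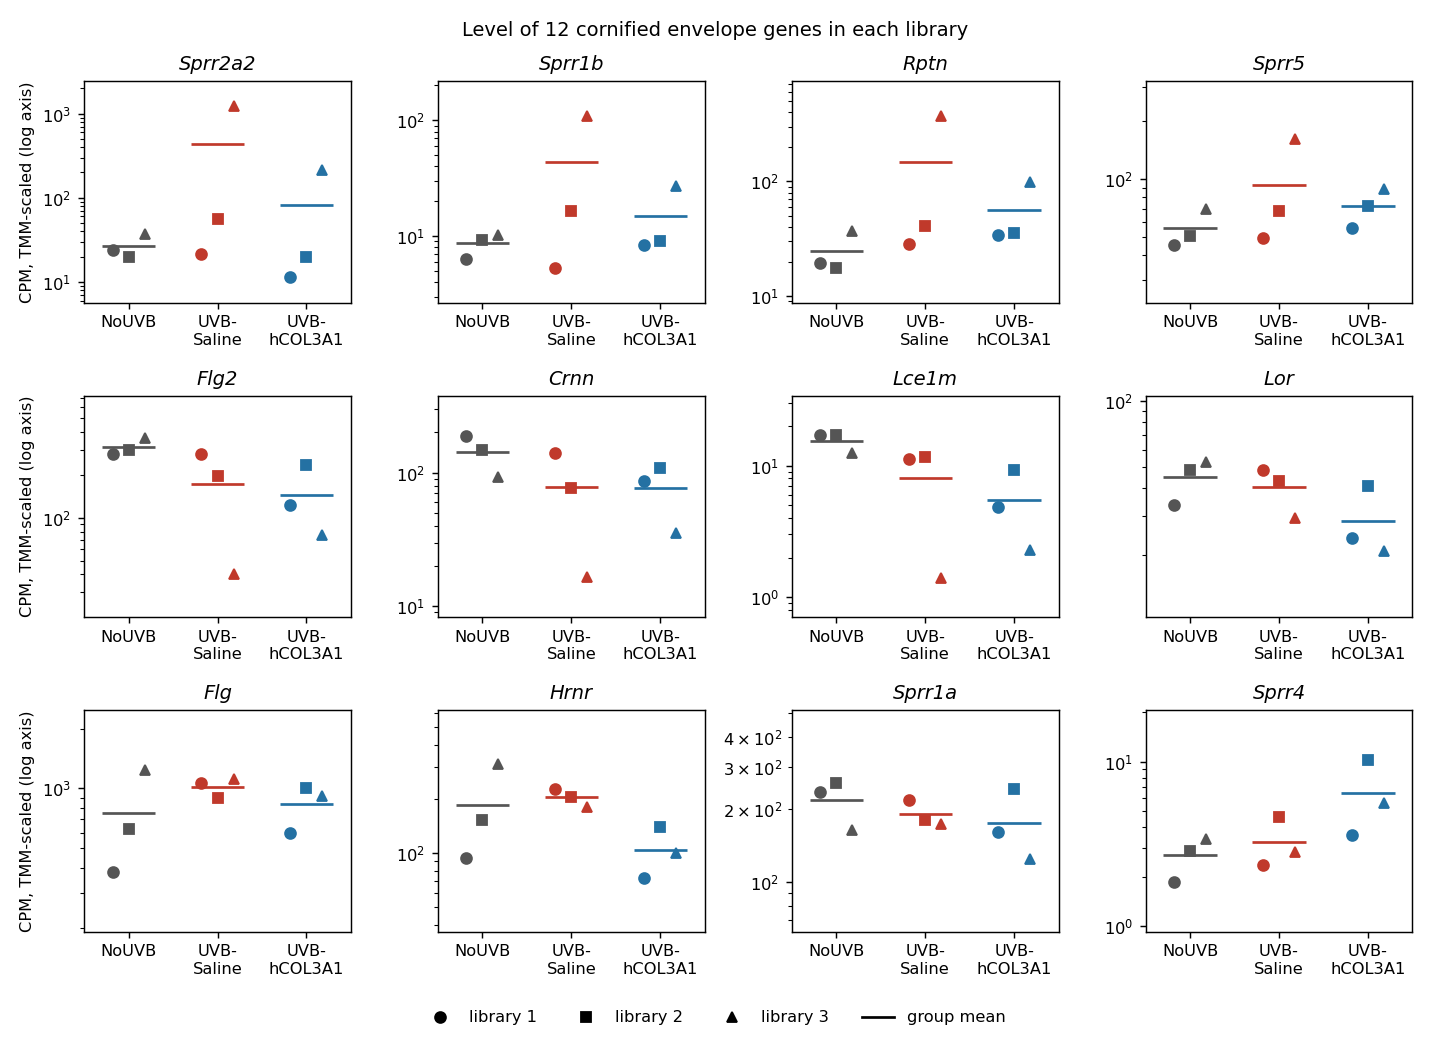
Levels of 12 members by library. The vertical log axis gives TMM-scaled CPM, each point is a library, and the line is the mean of its group. UVB-Saline 3 and UVB-hCOL3A1 3 are the high points of Sprr2a2, Sprr1b and Rptn and the low points of Flg2 and Crnn within their groups.

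The second comparison, UVB-hCOL3A1 against UVB-Saline, asks what hCOL3A1 changed in irradiated skin. No member passed it, and 30 of the 32 log2 differences were negative. Hrnr was lower in all 3 hCOL3A1 libraries than in any saline library. Sprr2a2, Sprr2a3, Sprr1b and Rptn also had negative values, which turned positive when UVB-Saline 3 was left out. Sprr4 had the smallest p and was the higher of only 2 positive members.

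Hrnr, a filaggrin-like protein of the envelope, was at 227, 204 and 181 CPM in UVB-Saline and 73.2, 141 and 100 CPM in UVB-hCOL3A1. The log2 difference of Hrnr was -0.97 ± 0.42 (adjusted p = 0.448). It was the only member placed wholly below, as were 8.33% of all tested genes, and 0 members were placed wholly above, against 8.95%. Flg stood at 596, 1010 and 912 CPM in UVB-hCOL3A1, within or below the saline values. Flg2 was at 123, 235 and 76.0 CPM with hCOL3A1, and its log2 difference of -0.25 ± 0.67 (adjusted p = 0.930) was 0.30 without UVB-Saline 1 and 0.08 without UVB-hCOL3A1 3. Crnn was at 86.9, 108 and 35.4 CPM, all within the saline range of 16.6 to 140 CPM. Rptn was at 34.2, 35.6 and 99.2 CPM, a log2 difference of -1.39 ± 1.03 (adjusted p = 0.663) that turned to 0.71 without UVB-Saline 3. For Lor, at 23.7, 40.9 and 20.7 CPM with hCOL3A1, the log2 difference was -0.51 ± 0.29 (adjusted p = 0.555).

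Sprr2a2 was at 11.4, 19.8 and 217 CPM in UVB-hCOL3A1. The first pair of these values lay below every saline library, and UVB-hCOL3A1 3 lay between UVB-Saline 2 and UVB-Saline 3. The summed level of the 3 Sprr2a genes was 86.9 ± 121 CPM (SD, n = 3), and their share of member counts was 12.5% in UVB-hCOL3A1 3. Sprr2a2 differed from saline by -2.40 ± 1.74 (adjusted p = 0.659) and Sprr2a3 by -2.20 ± 1.34 (adjusted p = 0.590). Without UVB-Saline 3 these values were 1.09 and 0.10, and without UVB-hCOL3A1 3 they were -4.78 and -3.90. Sprr1b was at 8.39, 9.13 and 26.9 CPM, a difference of -1.57 ± 1.03 (adjusted p = 0.620) that was 0.41 without UVB-Saline 3. Sprr4, a minor member of the family, was at 2.36, 4.60 and 2.82 CPM in UVB-Saline and 3.58, 10.3 and 5.61 CPM in UVB-hCOL3A1. The lowest hCOL3A1 value of Sprr4 overlapped with saline, and its log2 difference was 0.97 ± 0.40 (adjusted p = 0.415) or 0.47 without UVB-hCOL3A1 2. Sprr4 rested on 13 to 109 estimated counts per library.

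Lce1 genes summed to 55.5, 138 and 45.4 CPM in UVB-hCOL3A1, so its second library was above every saline library while the other 2 were below every one. All 14 had a negative difference, with a median of -0.36. Lce1j had the smallest p among them, at 4.62, 3.37 and 5.75 CPM in UVB-Saline and 1.83, 4.61 and 1.19 CPM in UVB-hCOL3A1. The log2 difference of Lce1j was -0.83 ± 0.46 (adjusted p = 0.529), and -1.56 without UVB-hCOL3A1 2. Lce1m differed by -0.57 ± 0.69 (adjusted p = 0.811). Lce6a, the other positive member, was at 2.16 to 6.35 CPM over all libraries and differed by 0.04 ± 0.45 (adjusted p = 0.987), and by -0.62 without UVB-hCOL3A1 2.

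The median over the 32 members was -0.37, against -0.02 over all tested genes. Without UVB-hCOL3A1 2 it was -0.89 and without UVB-hCOL3A1 1 it was -0.13. The quasi-likelihood test called 0 members, as it did 0% of all tested genes. At an unadjusted p under 0.05, 1 member was higher (Sprr4) and 0 were lower, against 5.97% and 5.32% of all tested genes. Without UVB-hCOL3A1 2 the members at that level were 13, all negative, against 6.84% of all tested genes in that fit in either direction, and still 0 were called. UVB-hCOL3A1 2 was the hCOL3A1 library with the highest median over members. Leaving out any other single library gave 1 to 2 members at that level, against 8.78% to 14.8% of all tested genes. DESeq2 called 0 of the 24 members to which it gave an adjusted p. With members that had a p but no adjusted p included, 3 were under the unadjusted level in either direction, against 4.69% of all genes with a p.

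**Figure D3:**
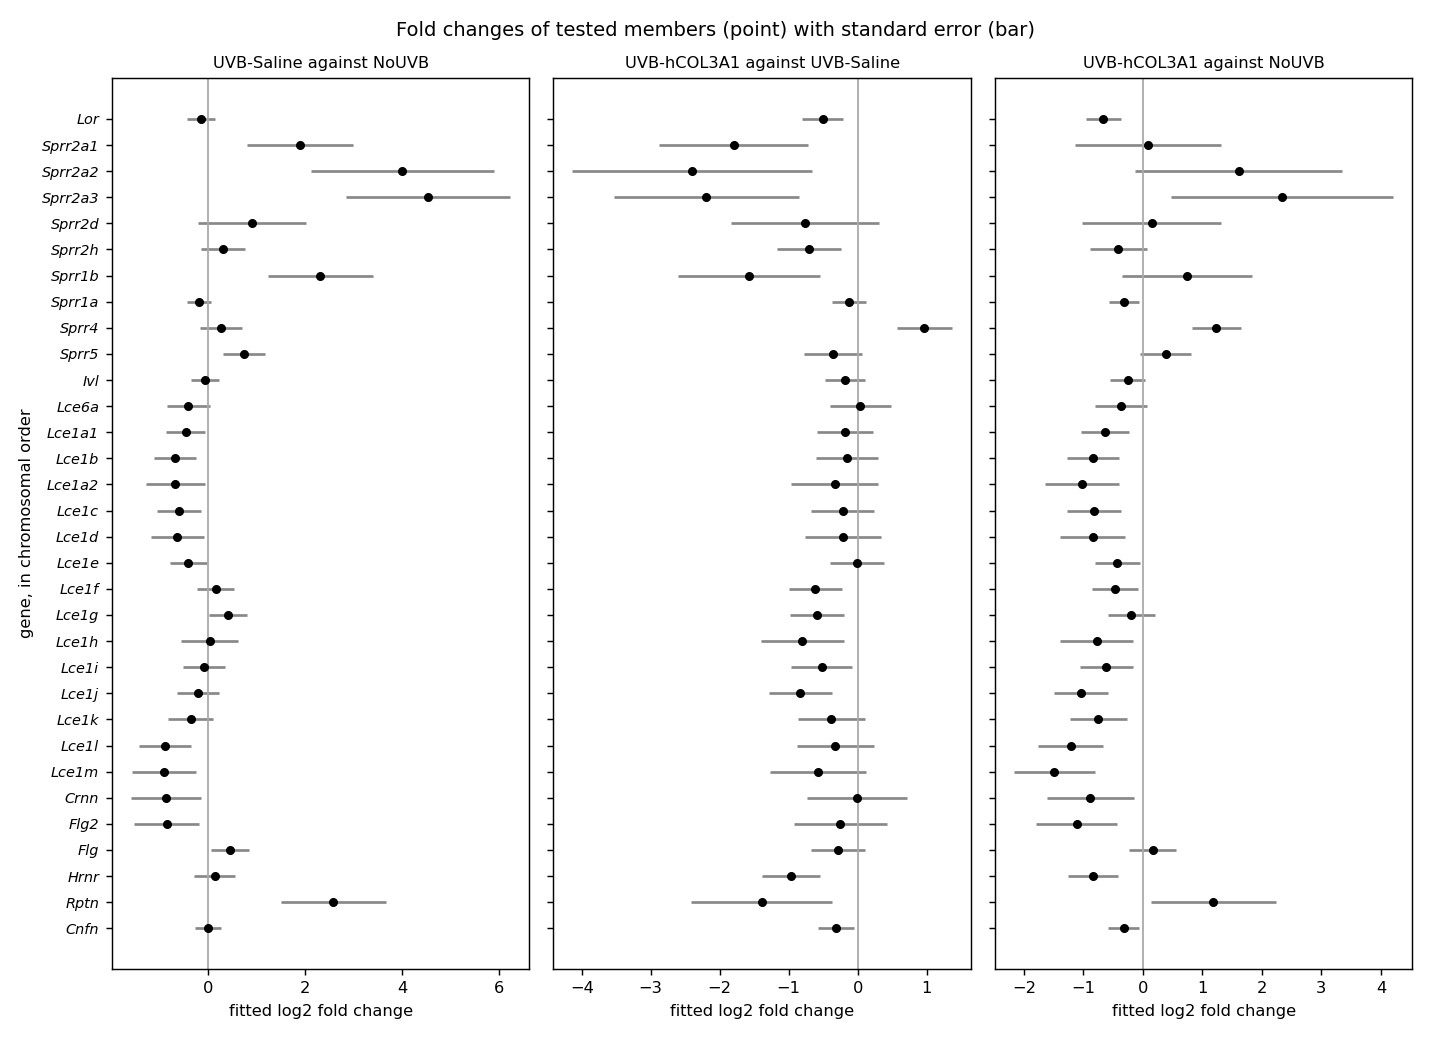
Fitted log2 differences of the 32 tested members. Each panel is a comparison, the horizontal axis gives the log2 difference and the bars its SE. Sprr2a3, Sprr2a2 and Rptn lie farthest right against NoUVB after UVB with saline, at 4.54, 4.00 and 2.58, with wide bars. The level of Sprr2a3 in NoUVB was only 0.481 to 0.714 CPM.

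The last comparison, UVB-hCOL3A1 against NoUVB, shares its libraries with the others and is not independent of them. Again no member passed. All 15 tested Lce genes had negative differences, Lce1m and Flg2 were below every unirradiated library, and Sprr4 was above every one. For Sprr2a2, Sprr2a3, Sprr1b and Rptn the differences were positive and smaller than in the first comparison.

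Lce1m, at 4.88, 9.22 and 2.27 CPM with hCOL3A1 against 12.4 to 17.0 CPM in NoUVB, differed by -1.49 ± 0.68 (adjusted p = 0.447). Lce1j differed by -1.04 ± 0.45 (adjusted p = 0.410) and Lce1l by -1.21 ± 0.54 (adjusted p = 0.424). The median over the Lce genes was -0.78. Flg2 differed by -1.11 ± 0.68 (adjusted p = 0.578), Crnn by -0.89 ± 0.73 (adjusted p = 0.687), Hrnr by -0.83 ± 0.42 (adjusted p = 0.495) and Lor by -0.67 ± 0.29 (adjusted p = 0.423). Flg differed by 0.16 ± 0.39 (adjusted p = 0.910), and by -0.14 without NoUVB 1. So Flg had a small value where its relatives Flg2 and Hrnr had larger negative ones; the differences between genes were not tested.

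Sprr4, at 1.85, 2.86 and 3.37 CPM in NoUVB, differed by 1.23 ± 0.41 (adjusted p = 0.296), or 0.73 without UVB-hCOL3A1 2. Sprr2a3 differed by 2.34 ± 1.87 (adjusted p = 0.681), Sprr2a2 by 1.61 ± 1.74 (adjusted p = 0.770), Rptn by 1.18 ± 1.05 (adjusted p = 0.714) and Sprr1b by 0.74 ± 1.09 (adjusted p = 0.837). Without UVB-hCOL3A1 3 these were 0.63, -0.78, 0.52 and 0.015.

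Over the members 9 differences were positive and 23 negative, with a median of -0.45 against -0.01 over all tested genes. Leaving out UVB-hCOL3A1 2 gave -0.95 and leaving out UVB-hCOL3A1 1 gave -0.25. By the quasi-likelihood test 0 members and 0.0408% of all tested genes were called. An unadjusted p under 0.05 was reached by 1 member in the higher direction (Sprr4) and 1 in the lower (Lce1j), against 6.29% and 5.52% of all tested genes. Without UVB-hCOL3A1 2 the count at that level was 17, all negative, against 8.81% of all tested genes in either direction, with 0 called. Any other single omission gave 1 to 5 members at that level, against 8.46% to 14.7% of all tested genes. DESeq2 called 0 of the 29 members to which it gave an adjusted p. With members that had a p but no adjusted p included, 6 were under the unadjusted level in either direction, against 5.13% of all genes with a p. Groups did not overlap for 1 higher member (Sprr4) and 2 lower ones (Lce1m and Flg2), and 10.7% of all tested genes were placed so in each direction.

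The members were also read library by library. In UVB-Saline 3, 8 of the 32 were more than 1 log2 unit above the NoUVB mean and 4 more than 1 below, against 5.3% and 4.43% of all tested genes. Sprr2a3 (5.58), Sprr2a2 (5.54), Rptn (3.99) and Sprr1b (3.65) were highest there, and Lce1m (-3.27), Crnn (-3.03) and Flg2 (-2.95) lowest, as log2 CPM relative to the NoUVB mean. In UVB-hCOL3A1 3 these genes lay on the same sides with smaller values, among them Sprr2a3 at 3.36, Sprr2a2 at 3.05, Rptn at 2.08, Lce1m at -2.65, Flg2 at -2.03 and Crnn at -1.94. Lce1l, at -2.14, was the second lowest there. In that library 7 members were more than 1 unit above and 12 more than 1 below, against 4.54% and 2.87% of all tested genes. UVB-hCOL3A1 1 differed from UVB-Saline 3 and UVB-hCOL3A1 3. It had 0 members more than 1 unit above and 15 more than 1 below, against 2.57% and 1.75% of all tested genes, and its median over the members was -0.90. UVB-hCOL3A1 2 had a median of 0.11, with 1 member more than 1 unit above and 0 below, against 2.67% and 2.12% of all tested genes. UVB-Saline 1 had 1 above and 0 below, against 1.3% and 2.82% of all tested genes, and UVB-Saline 2 had 3 and 2, against 2.23% and 1.57%. The low Lce values with hCOL3A1 were thus those of UVB-hCOL3A1 1 and 3. Along the chromosome the members more than 1 unit above in UVB-Saline 3 lie among the Sprr genes, except Rptn, which lies in the same stretch as Crnn, Flg2, Flg and Hrnr.

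**Figure D4:**
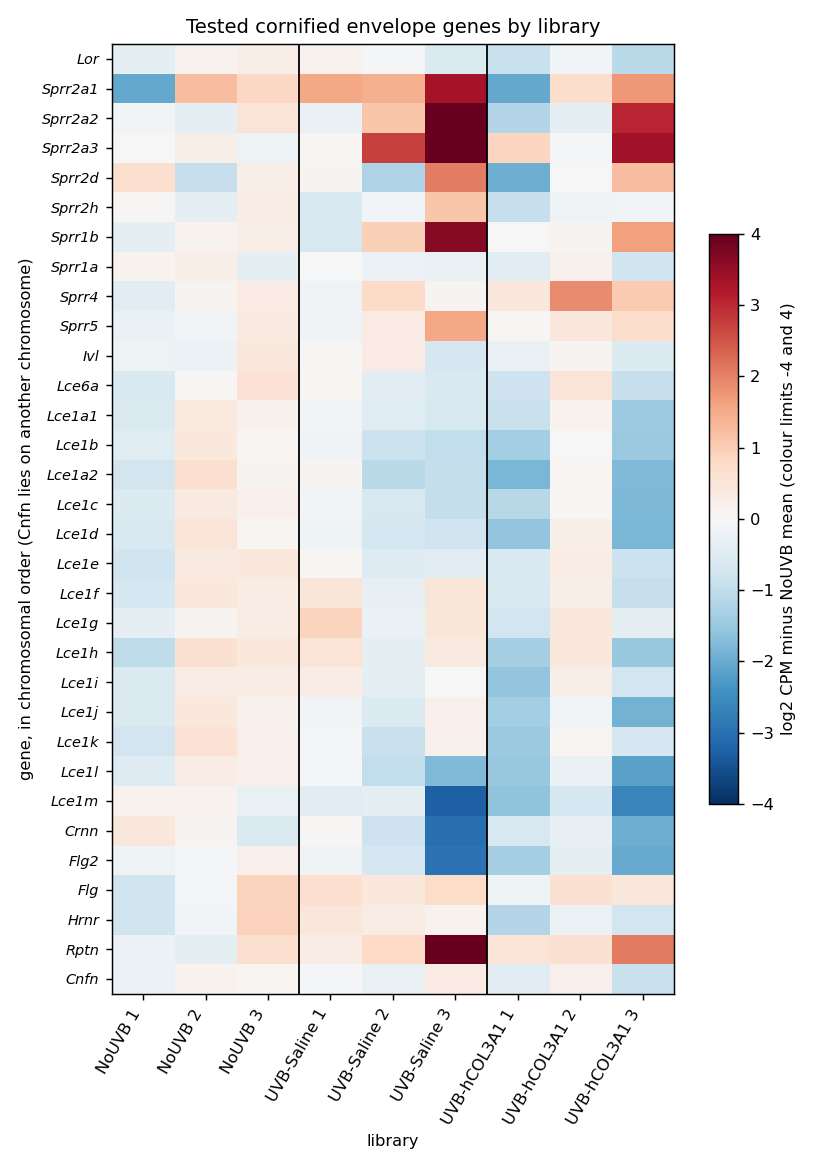
The 32 tested members in chromosomal order by library. Colour gives log2 CPM minus the NoUVB mean, with the scale ending at -4 and 4. In UVB-Saline 3 the Sprr2a genes and Rptn are high and Lce1m, Crnn and Flg2 low, while UVB-hCOL3A1 1 is low across most rows.

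Markers of other states and cells differed in the same libraries. The 9 tested stress keratins and alarmins, of 15 listed, averaged 2.31 log2 units above the NoUVB mean in UVB-Saline 3 and 1.16 above in UVB-hCOL3A1 3, against -0.32 to 0.49 in the other 7 libraries. The summed level of the 13 listed genes that matched a row, tested or not, was 505 to 672 CPM in NoUVB. It was 523 to 3862 CPM in UVB-Saline and 505 to 1016 CPM in UVB-hCOL3A1. Krt16, a keratin of activated epidermis, was at 49.0, 93.2 and 1443 CPM in UVB-Saline and 46.3, 57.9 and 255 CPM in UVB-hCOL3A1, against 49.9 to 70.2 CPM in NoUVB. The alarmins S100a8 and S100a9 did not share the rise in UVB-Saline 3. S100a8 was at 4.88 CPM there, below its NoUVB range of 6.11 to 10.6 CPM, and S100a9 lay within its NoUVB range. All other tested genes of the list lay above their NoUVB ranges in UVB-Saline 3. In UVB-hCOL3A1 3 S100a8 and S100a9 lay above their NoUVB ranges. The 18 tested rows of inner root sheath and hair shaft genes averaged -2.27 in UVB-Saline 3 and -1.78 in UVB-hCOL3A1 3, against -0.63 to 0.29 elsewhere. Their summed level was 2089 to 3741 CPM in NoUVB, 483 to 3718 CPM in UVB-Saline and 863 to 2376 CPM in UVB-hCOL3A1. Tchh, trichohyalin of the inner root sheath and a fused S100 gene itself, was at 774 CPM in UVB-Saline 3 and 1721 CPM in UVB-hCOL3A1 3 against 3578 to 8157 CPM in the others. Leukocyte markers, 9 of 10 tested with Ly6g at 0 throughout, averaged 0.98 and 1.01 in those libraries and -0.53 to 0.61 elsewhere. Their summed level was 495 to 692 CPM in NoUVB, 321 to 1070 CPM in UVB-Saline and 684 to 1065 CPM in UVB-hCOL3A1. The 16 interferon response genes averaged 0.56, 1.41 and 2.69 in UVB-Saline and 1.73, 1.74 and 1.84 in UVB-hCOL3A1, with summed levels of 82.7 to 144, 120 to 679 and 253 to 322 CPM in NoUVB, UVB-Saline and UVB-hCOL3A1. Basal epidermis markers, of which Trp63 is also listed as a regulator, averaged 0.19 in UVB-Saline 3 and -0.21 to 0.05 in the other 8. In UVB-Saline 3 and UVB-hCOL3A1 3 the sebaceous list averaged -0.52 and 0.18, the fibroblast list -0.18 and 0.15, the adipocyte list -1.06 and -0.29 and the skeletal muscle list 0.17 and 1.06. The part of these states and cells in the members' values was not tested.

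**Figure D5:**
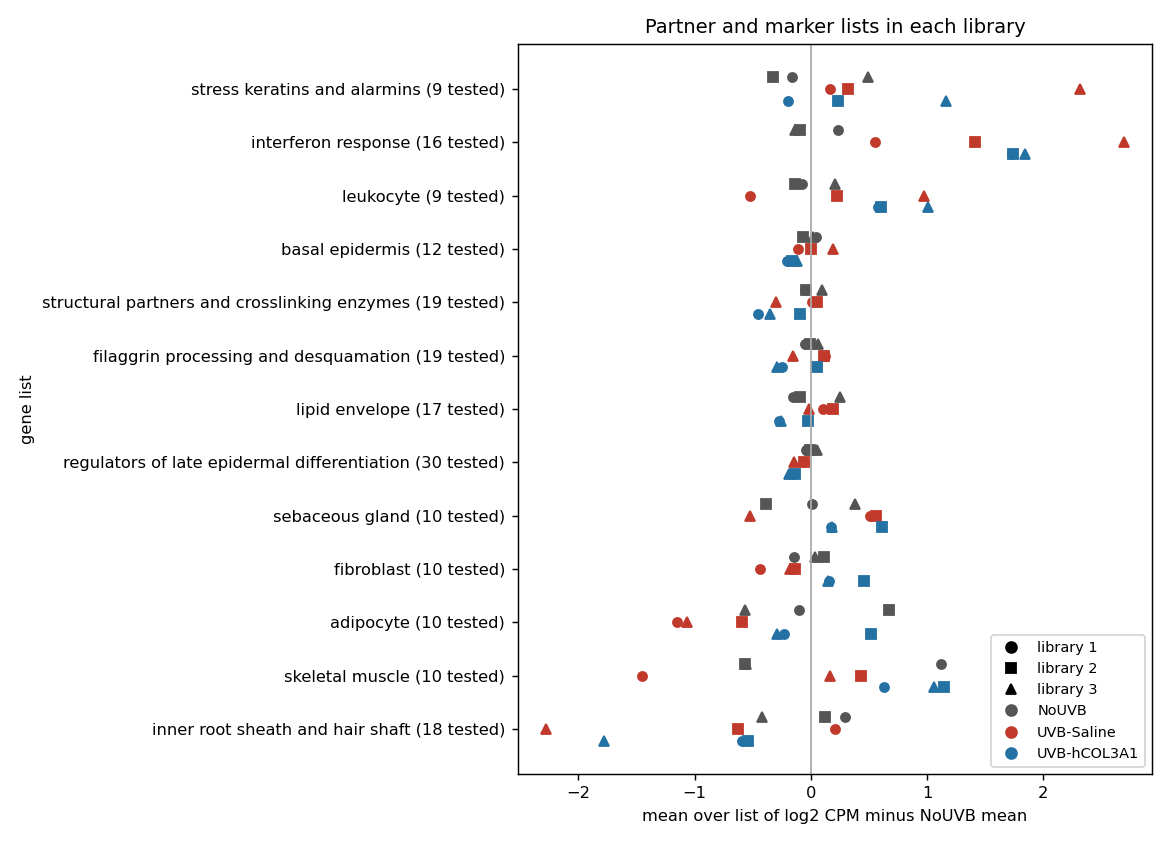
Partner and marker lists by library. The horizontal axis gives the mean log2 CPM of a list minus its NoUVB mean, and each point is a library. In UVB-Saline 3 the interferon response list is highest, at 2.69, followed by the list of stress keratins and alarmins, at 2.31. Hair genes are lowest there, at -2.27.

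The genes that build, crosslink and regulate the envelope were read from 4 lists, and 0 of their genes passed in any comparison. Among 19 tested structural partners and crosslinking enzymes, 9 were positive and 10 negative for UVB-Saline against NoUVB (median -0.01). For UVB-hCOL3A1 against UVB-Saline 3 were positive and 16 negative (median -0.30), and against NoUVB 5 and 14 (median -0.38). The smallest p values belonged to the transglutaminase Tgm5 in the first comparison, at a log2 difference of 1.12 ± 0.22 (adjusted p = 0.217), to the transglutaminase Tgm3 in the second, at -0.77 ± 0.15 (adjusted p = 0.190), and to periplakin, Ppl, in the last, at -0.64 ± 0.14 (adjusted p = 0.145). Tgm1, the main envelope transglutaminase, differed by -0.55 ± 0.15 (adjusted p = 0.255) in the second. For 19 genes of filaggrin processing and desquamation the medians in the same order were 0.16, -0.24 and -0.03, with 13, 2 and 7 positive. Dsc1, a desmosomal cadherin of the upper layers, differed by -0.55 ± 0.09 (adjusted p = 0.128) in the second comparison. For 17 lipid envelope genes the medians were 0.06, -0.31 and -0.15, with 10, 3 and 4 positive. Cers3, a ceramide synthase, and Abca12, a lipid transporter, differed by -0.74 ± 0.15 and -0.62 ± 0.13 in the second (both adjusted p = 0.201). For 30 regulators of late differentiation the medians were -0.05, -0.14 and -0.19, with 12, 8 and 5 positive. Trp63, the master regulator of stratified epithelium, had the smallest p of its list in the last comparison, at -0.46 ± 0.09 (adjusted p = 0.126). The median over all tested genes was 0.01, -0.02 and -0.01 in the 3 comparisons.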

How the data were processed

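Libraries were made from TRIzol-extracted total RNA and read as 150 bp pairs, per the labels' protocols. The submitters' processing notes list RSEM 1.3.3, STAR 2.7.11b, Bowtie2 2.5.4, fastp 0.23.4, DESeq2 1.44.0 and the build GRCm39. What each did was not given in the sources used here, nor were annotation and strand, and sense and antisense genes therefore cannot be separated. The authors deposited estimated counts, a form that shares reads among near-identical genes, for 57180 genes, and 11.1% to 14.0% of values per library were not whole and were rounded before testing. The 525 rows without a symbol held 0.0384% of counts.

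Counts were tested in R 4.3.3 with edgeR 4.0.16 (filterByExpr, TMM, robust quasi-likelihood, 3 groups of 3 libraries, residual degrees of freedom 6, common coefficient of biological variation 0.193). Tests were two-sided with Benjamini-Hochberg adjustment over 17168 genes at 0.05, and every adjusted p is from this fit. Library values used log2 CPM with a prior count of 2. DESeq2 1.42.0, other scalings and filters, a replicate block and omitted libraries were alternatives. Exon lengths and gene order came from GENCODE M21 on GRCm38, matched by identifier for 47 of 47 members, so no GRCm39 coordinate is given. All 8 single-gene members, the tested Sprr genes, the highest Lce genes and the smallest p values per direction were named; members, lists and this rule were chosen with earlier results of these data known. The marker symbols Il1f9, BC100530 and Krt85 matched no row.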

Additional observations from a re-analysis of the deposited data

How the results depend on the processing

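Under 16 alternatives, 0 members were called in each comparison, and 29 of 40 named differences reversed in none of them. The lowest adjusted p over these was 0.0799. Of the 12102 to 35553 genes in a fit, the alternatives called 0 to 35 higher and 0 to 61 lower for UVB-Saline against NoUVB. For UVB-hCOL3A1 they called 0 to 125 higher and 0 to 48 lower against UVB-Saline. Against NoUVB they called 0 to 283 higher and 0 to 124 lower. Without 1 library the median over members ranged from -0.26 (NoUVB 1) to 0.03 (NoUVB 3) for UVB-Saline against NoUVB, from -0.89 to -0.13 for UVB-hCOL3A1 against UVB-Saline and from -0.95 to -0.25 for UVB-hCOL3A1 against NoUVB, and 0 members were called in each such fit. Calls over all genes (higher and lower) were 0 and 3, 0 and 0, and 7 and 0 by edgeR, and 35 and 61, 125 and 48, and 181 and 88 by DESeq2, of which none was a member. Members near 1 CPM rest on few counts.

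The named differences that reversed when 1 library was left out had these ranges. For UVB-Saline against NoUVB, Hrnr was lowest at -0.19 without NoUVB 1, Sprr4 ran from -0.086 (without UVB-Saline 2) to 0.45, and Lor from -0.34 to 0.014 (without UVB-Saline 3). For UVB-hCOL3A1 against UVB-Saline the highest values, all without UVB-Saline 3, were 0.71 for Rptn, 0.41 for Sprr1b, 1.09 for Sprr2a2 and 0.10 for Sprr2a3. The lowest, all without UVB-hCOL3A1 3, were -2.05, -2.29, -4.78 and -3.90. Lce6a ran from -0.62 (without UVB-hCOL3A1 2) to 0.31, and was -0.028 without UVB-Saline 2 and -0.071 without UVB-Saline 3. Flg2 was 0.30 without UVB-Saline 1 and 0.08 without UVB-hCOL3A1 3. For UVB-hCOL3A1 against NoUVB, Flg ran from -0.14 (without NoUVB 1) to 0.74 and Sprr2a2 from -0.78 (without UVB-hCOL3A1 3) to 2.14. Leaving out both UVB-Saline 3 and UVB-hCOL3A1 3, chosen after seeing the data, gave Lor 0.014 against NoUVB after saline, Rptn 0.033 against saline and Sprr2a2 -0.79 against NoUVB after hCOL3A1, with medians over members of -0.17, -0.25 and -0.48. Beyond fewer samples, the cause was not tested.

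Deviations of libraries with the same number correlated at 0.02 to 0.41, all positive, and those with different numbers at -0.39 to 0.26. The same-number values were not over 0.1 in every pair and no label pairs the libraries. The numbers were therefore not taken to pair the samples, although a pairing is not excluded. With the replicate block 0 members were called. Over all genes it called 21 higher and 40 lower, 60 and 14, and 89 and 29 in the 3 comparisons. The medians over members were -0.07, -0.49 and -0.45, and Lce6a against saline was -0.029.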

Other observations

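The following ratios were chosen after their values were seen and are given as values only. Hrnr per length relative to Flg per length was 0.417, 0.409 and 0.424 in the NoUVB libraries, 0.360, 0.385 and 0.274 in UVB-Saline and 0.207, 0.234 and 0.185 in UVB-hCOL3A1. The 3 groups did not overlap, although the level of each gene alone did between NoUVB and UVB-Saline. Of 465 pairs of tested members, leaving out Sprr2a1 because it was at 0 in some libraries, 2 (0.43%) had no overlap between any of the groups, the other being Sprr2h and Sprr5. Flg2 relative to Flg was 0.662, 0.429 and 0.265 in NoUVB, 0.241, 0.198 and 0.0326 in UVB-Saline and 0.187, 0.211 and 0.0755 in UVB-hCOL3A1. Crnn relative to Rptn, per length, was 5.60 to 21.3 in NoUVB and 0.0986 in UVB-Saline 3 and 0.793 in UVB-hCOL3A1 3, against 4.18 to 10.9 in the other UVB libraries.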
